A study of Mus musculus with 16 samples.

Results

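WDR5 and 9 other subunits of the complexes that methylate histone H3 at lysine 4 (H3K4) were followed through early reprogramming of mouse fibroblasts. The genes are *Wdr5*, *Ash2l*, *Rbbp5*, *Dpy30*, *Kmt2a*, *Kmt2b*, *Kmt2d*, *Setd1a*, *Setd1b* and *Men1*, and they were picked from the deposited expression table by gene symbol. All 10 were found, once each, among 18990 genes, and all 10 were among the 14028 genes tested, which had a mean of at least 0 on the log2 CPM scale (CPM, read counts scaled to the size of the library).

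The cells were primary wild-type BL6 mouse embryonic fibroblasts (MEFs), used at passage 2. Every group, the nt control included, carried the doxycycline-inducible tet-STEMCCA lentivirus, which encodes Oct4, Sox2, Klf4 and c-Myc, and a lentivirus for the transactivator rtTA, at a multiplicity of infection of 1. All cells received 40 nM of pooled siRNAs by reverse transfection. They were replated a day later and induced in medium with LIF, doxycycline (2 µg/mL), chiron (3 µM), Alk5i, a TGFβ inhibitor (0.25 µM), and ascorbic acid (50 µg/mL). The 4 siRNA groups were nt control (non-targeting), siWdr5, siBrca1 and siBard1. Each was harvested at day 3 and at day 6 with 2 replicates, giving 16 libraries of bulk RNA in 8 groups. BRCA1 and BARD1, the targets of the other two knockdowns, form a heterodimeric ubiquitin ligase that acts in DNA repair. H3K4 methylation and protein levels are not analysed here, and transcript levels are the only readout. In bulk RNA, fewer cells that express a gene and less of its RNA per cell cannot be told apart.

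Methylation of H3K4 marks active promoters and enhancers and is written in mammals by the SET1/MLL family of complexes, also called COMPASS. A catalytic subunit (SETD1A, SETD1B or one of the MLL proteins encoded by *Kmt2a* to *Kmt2d*) is nearly inactive alone and works on a shared core of WDR5, RBBP5, ASH2L and DPY30, the WRAD module. Within this core, WDR5 is a WD-repeat scaffold that holds the catalytic subunit, RBBP5 and ASH2L stimulate its activity, and DPY30 binds ASH2L. Menin, the product of *Men1*, belongs, within this family, only to the complexes of KMT2A and KMT2B. WDR5 is known as an upholder of embryonic stem cell self-renewal and also sits in other chromatin complexes, among them the NSL acetyltransferase complex.

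The siRNAs define the groups, so the guide strands listed in the study's siRNA library are shown with bases 2 to 8, the seed that pairs first with a transcript, in capitals. The last 2 bases of each are the overhang. For each target gene 2 siRNAs are shown, and the exon in the name is the one given in the library.
siWdr5, exon 3: cAUAGUUUggcuuaacuggtg
siWdr5, exon 7: cACGGUUGaaaugaacggctg
siBrca1, exon 3: aAGGACAUugugaaggccctt
siBrca1, exon 4: aCUAAACCuugugcuuccctg
siBard1, exon 2: aGAAGAUGugcucacaucctc
siBard1, exon 3: uUGUCGGUuuaucuugaggtc

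The first siWdr5 guide pairs with ccagttaagccaaactatg, which lies in the coding part of exon 3 of *Wdr5* at chr2:27519355-27519373 (GRCm38, plus strand). The other pairs with gccgttcatttcaaccgtg, which spans the junction of exons 7 and 8 in the coding sequence, with its ends at 27520909 and 27525121. Across the annotated transcripts, the 19 bases of each of the 6 sites matched only the intended gene. The 6 siRNAs shown thus matched no other subunit over their whole length. The study pooled more siRNAs per gene than these, and that the RNA libraries used exactly this collection is not stated, so the remaining siRNAs were not checked. Matches to a seed alone were present in some 3′ UTRs of the subunits. The seed of the siBrca1 exon 3 siRNA had 1 match in *Wdr5*, 2 in *Rbbp5* and 1 in *Kmt2a*, and 14.8% of the 12570 annotated 3′ UTRs of tested genes held it. The siBard1 exon 2 seed had 1 match each in *Rbbp5*, *Kmt2a* and *Setd1b* (16.5% of all 3′ UTRs), and the siWdr5 exon 3 seed had 1 each in *Ash2l* and *Kmt2d* (13.8%). The other 3 seeds had no match in the 3′ UTR of any subunit, and *Dpy30* and *Men1* held none of the 6. Outside the subunits, the 3′ UTR of *Bard1* held 1 match to the siWdr5 exon 3 seed and 1 to the siBrca1 exon 3 seed. Such a match is a description of sequence, and whether any of them acted was not tested.

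Libraries held 11169738 to 26832534 reads, and a subunit was covered by at least 296 reads (*Rbbp5*) and at most 9494 reads (*Kmt2d*) in a library, so counting error was small for all 10 genes. The 9 fibroblast markers summed to 5088 to 14213 CPM over the libraries. Markers of endothelial cells (15.2 to 59.1 CPM), macrophages (5.47 to 13.7 CPM), skeletal muscle (16.1 to 172 CPM, mostly *Des*) and neural cells (18.4 to 71.2 CPM) had far lower sums. The siRNA target *Brca1* stood at 37.5 CPM in siBrca1 day 3 replicate 1 and at 19.4 CPM in replicate 2, against 82.4 and 78.0 CPM in the nt control, and whether a stronger knockdown gave the lower value was not tested. *Bard1* stood at 18.01 and 20.8 CPM in siBard1 at day 3 against 30.5 and 29.1 CPM (log2-fold change −0.62, adjusted p = 0.0422), and its values were lower still in siWdr5 (13.9 and 15.3 CPM) and siBrca1 (14.4 and 9.07 CPM). By day 6 neither target passed the test against the nt control: *Brca1* had 35.9 and 40.1 CPM in siBrca1 against 33.2 and 42.6 CPM (log2-fold change 0.013, adjusted p = 0.988), and *Bard1* had 12.6 and 14.5 CPM in siBard1 against 11.3 and 14.0 CPM (log2-fold change 0.11, adjusted p = 0.853). No knockdown of the target transcript was thus measurable in the siBrca1 and siBard1 libraries of day 6, in which the control itself had less of both transcripts than at day 3. The deepest library, siWdr5 day 6 replicate 2, weighed heavily. Without it the number of all tested genes that differed between siWdr5 and nt control fell from 3060 to 38, and values without it are therefore given beside the results that rest on it.

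In the GENCODE vM21 annotation of GRCm38, *Wdr5* lies at chr2:27515157-27536535 (plus strand), *Ash2l* at chr8:25815996-25847694 (minus), *Rbbp5* at chr1:132477365-132505659 (plus) and *Dpy30* at chr17:74299474-74323944 (minus). The catalytic subunits *Kmt2a* (chr9:44803355-44881296, minus), *Kmt2b* (chr7:30568858-30588726, minus), *Kmt2d* (chr15:98831669-98871204, minus), *Setd1a* (chr7:127776670-127800122, plus) and *Setd1b* (chr5:123142193-123168629, plus) are spread over 4 chromosomes, and *Men1* is at chr19:6334979-6340891 (plus). For *Setd1a*, 51.8% of exon bases are shared with the same-strand gene *Gm49388*, so its level is uncertain. In *Kmt2a*, 2.27% of exon bases overlap a gene on the opposite strand.

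Per kilobase of exon, the core subunits *Dpy30* and *Wdr5* had the highest values of the set, and the SET1 enzymes had the lowest. Exon length here is all annotated exon bases of a gene, merged over its transcripts. It can exceed the length of the transcripts present, so the order depends on the annotation as well as on abundance. The place of *Setd1a* is further uncertain because of the exon bases shared with *Gm49388*. In the nt control at day 3, *Dpy30* stood at 84.4 CPM per kb and *Wdr5* at 36.5 CPM per kb. They were followed by *Kmt2d* (19.5), *Men1* (16.5), *Kmt2b* (14.1), *Kmt2a* (12.1), *Rbbp5* (9.48), *Ash2l* (8.23), *Setd1b* (6.57) and *Setd1a* (5.64 CPM per kb), and no neighbours in this order had overlapping libraries. *Dpy30* kept the top place in all 8 groups and *Wdr5* the second place in all but siWdr5 at day 3. There, *Wdr5* stood at 14.7 CPM per kb, below *Kmt2d* and overlapping *Kmt2a* at 14.9 CPM per kb, while *Setd1b* moved up to 9.14 CPM per kb, above *Ash2l* and *Rbbp5*, which overlapped each other. In siBrca1 at day 3 *Wdr5* (19.9 CPM per kb) overlapped *Kmt2d* (19.2 CPM per kb). In the nt control at day 6, *Setd1b* (3.90 CPM per kb) lay below *Setd1a* (4.48 CPM per kb), and the neighbours *Kmt2d* and *Men1*, and *Rbbp5* and *Ash2l*, overlapped.

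**Figure D1:**
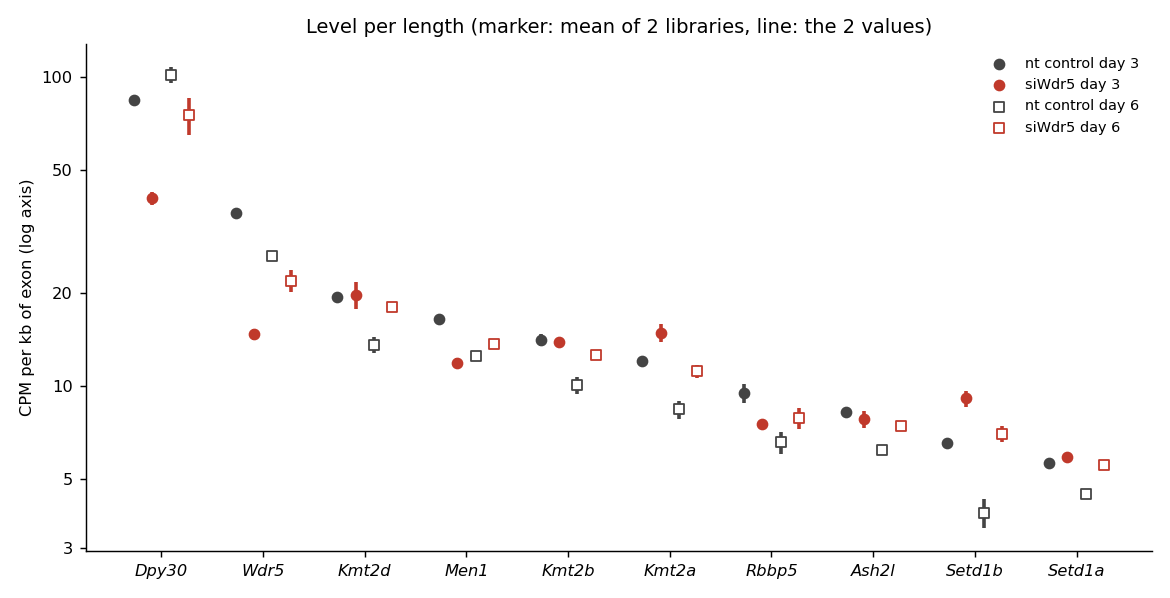
Transcript level per exon length (CPM per kb, log axis) of the 10 subunits in nt control and siWdr5 at day 3 and day 6. Each marker is a group mean, and its line runs from the lower to the higher library value. *Dpy30* is highest in every group shown, from 84.4 CPM per kb in the nt control at day 3, and *Wdr5* drops from 36.5 to 14.7 CPM per kb under siWdr5 at day 3.

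The first comparison asks how the transcripts of the 10 subunits differed between siWdr5 and the nt control at day 3. *Wdr5*, *Dpy30*, *Men1* and *Rbbp5* were lower in siWdr5, *Setd1b* and *Kmt2a* were higher, and *Ash2l*, *Kmt2b*, *Kmt2d* and *Setd1a* did not pass the test. Thus 6 of the 10 subunits were called at an adjusted p under 0.05, 2 higher and 4 lower, while 35.0% of all tested genes were called (18.3% higher and 16.8% lower). Past an absolute log2-fold change of 1 were 2 of the 10, against 7.05% of all genes. Both counts include *Wdr5*, the siRNA target that defines the group, so its call is not a response of a subunit. The median log2-fold change of the 10 subunits was −0.051, and that of all genes was −0.042.

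Among the WRAD core genes, *Wdr5*, the target, stood at 132 and 130.5 CPM in the nt control and at 50.6 and 55.3 CPM in siWdr5. All siWdr5 libraries lay far below the control, and *Wdr5* fell by 59.6% (log2-fold change −1.31, SE 0.10, limma, adjusted p = 3.02e-06). *Dpy30* fell nearly as much, from 99.8 and 93.6 CPM to 44.2 and 48.6 CPM. It decreased by 52.0% (log2-fold change −1.06, SE 0.19, adjusted p = 0.00082), without overlap between the groups. *Rbbp5* stood at 39.8 and 34.7 CPM in the nt control and at 28.8 and 30.5 CPM in siWdr5. The groups did not overlap and the difference was just past the threshold (log2-fold change −0.33, SE 0.12, adjusted p = 0.0448), but it missed the threshold whichever of the 4 libraries was left out, with adjusted p of 0.0743 to 0.35. *Ash2l*, at 71.9 and 75.8 CPM in the control and 65.7 and 74.6 CPM in siWdr5, overlapped between the groups (log2-fold change −0.076, adjusted p = 0.613).

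Of the 5 catalytic subunits, 2 were called, both higher. *Setd1b*, which encodes a SET1 enzyme, stood at 78.8 and 79.9 CPM in the nt control and at 117 and 104 CPM in siWdr5. It rose by 38.8% (log2-fold change 0.47, SE 0.12, adjusted p = 0.00647), and both siWdr5 libraries were above both controls. *Kmt2a*, encoding the MLL enzyme best known from leukaemia fusions, stood at 203 and 199.7 CPM in the control and at 265 and 232 CPM in siWdr5. These groups also did not overlap, and the rise was smaller (log2-fold change 0.30, SE 0.10, adjusted p = 0.0348). *Kmt2b*, encoding an MLL enzyme that acts at promoters, had 129.9 and 141 CPM in the control and 134 and 132 CPM in siWdr5 (log2-fold change −0.026, adjusted p = 0.861). *Kmt2d*, for the enhancer enzyme MLL4, had 396 and 380 CPM against 433 and 355 CPM (log2-fold change 0.016, adjusted p = 0.925). The paralogue of *Setd1b*, *Setd1a*, had 37.1 and 39.5 CPM against 40.1 and 40.0 CPM (log2-fold change 0.063, adjusted p = 0.688). In *Kmt2b* and *Kmt2d* the siWdr5 libraries lay within or on both sides of the control libraries, and in *Setd1a* they lay just above them.

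*Men1*, for the cofactor of KMT2A and KMT2B, stood at 63.6 and 63.0 CPM in the nt control and at 43.9 and 47.3 CPM in siWdr5. It fell by 28.0% (log2-fold change −0.47, SE 0.12, adjusted p = 0.00849), with both siWdr5 libraries below the controls. *Wdr5* and *Dpy30* stayed called when any 1 of the 4 compared libraries was left out. *Setd1b* stayed called in 2 of these 4 refits, and *Kmt2a* and *Men1* in 1 each.

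**Figure D2:**
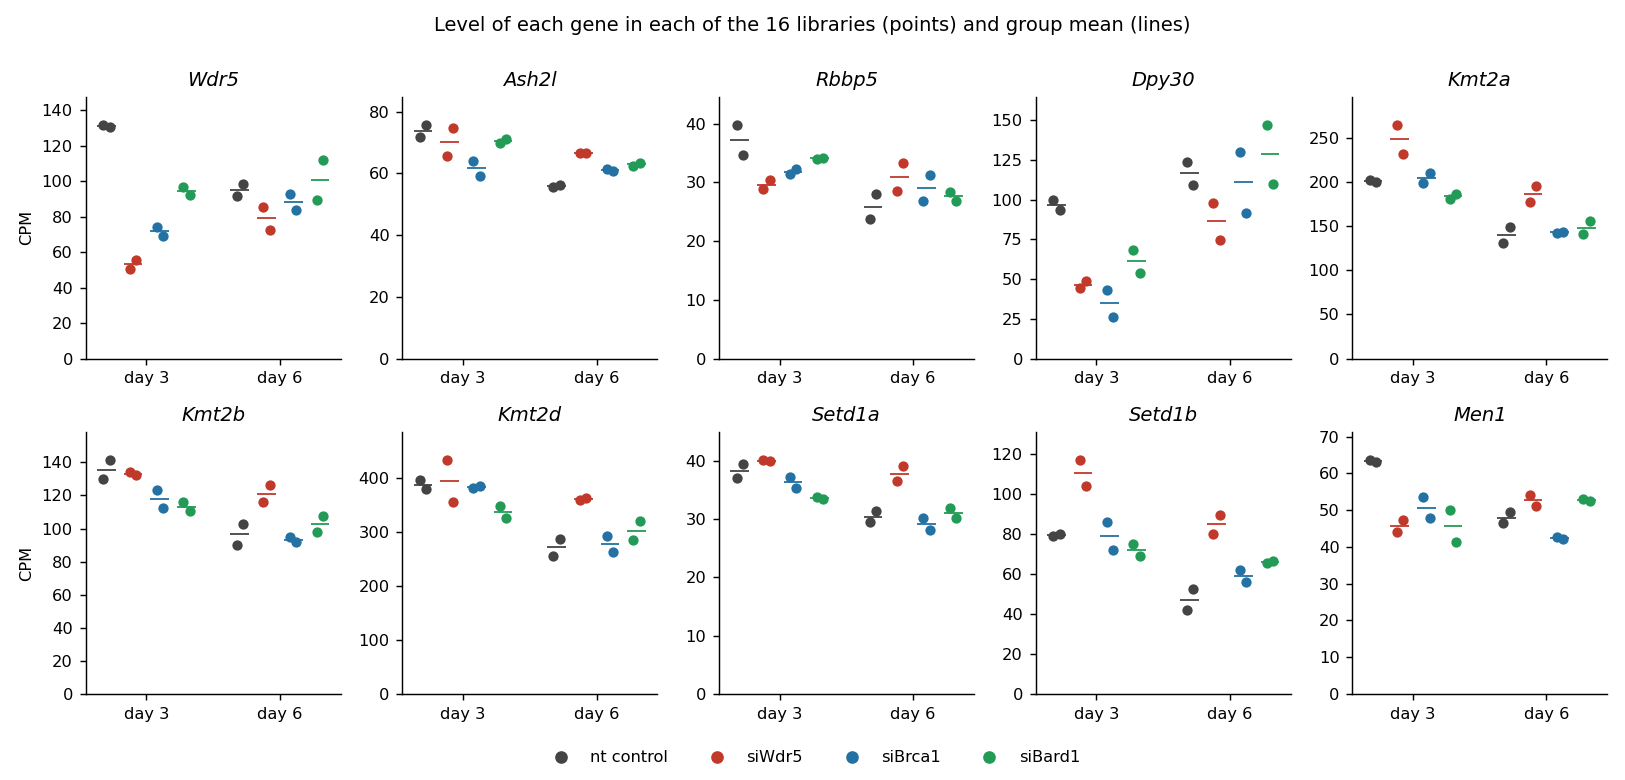
Transcript level (CPM, linear axes from 0) of each subunit in the 16 libraries, by siRNA group and day, with points for libraries and lines for the mean of 2. *Wdr5* and *Dpy30* are lower in all 3 knockdowns than in the nt control at day 3, while at day 6 the knockdown libraries of *Dpy30* lie between 74.7 and 147 CPM around controls of 124 and 109 CPM.

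siBrca1 does not target *Wdr5*, yet at day 3 *Wdr5*, *Dpy30* and *Men1* were lower in siBrca1 as well. These were the 3 called subunits, all lower, where 47.2% of all tested genes were called (25.4% higher and 21.8% lower). Past a log2-fold change of 1 was 1 of the 10, against 13.4% of all genes, and the median of the 10 was −0.21, against 0.0022 for all genes. *Wdr5* stood at 74.3 and 68.9 CPM in siBrca1 against 132 and 130.5 CPM in the nt control. Without overlap, it fell by 45.4% (log2-fold change −0.87, SE 0.10, adjusted p = 2.48e-05), and it stayed called when either siBrca1 replicate was left out. *Dpy30* had 43.4 CPM in siBrca1 replicate 1 and 26.2 CPM in replicate 2, against 99.8 and 93.6 CPM. It fell by 65.2% (log2-fold change −1.52, SE 0.19, adjusted p = 3.27e-05), the largest change of any subunit in the 3 knockdowns at day 3. The log2-fold change was −1.16 without replicate 2, the library with less *Brca1* transcript, and −1.89 without replicate 1, called in both cases. *Men1* stood at 53.6 and 47.8 CPM against 63.6 and 63.0 CPM and decreased by 20.05% (log2-fold change −0.32, adjusted p = 0.0419). It missed the threshold without siBrca1 replicate 2 (log2-fold change −0.24, adjusted p = 0.163).

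The other WRAD genes in siBrca1 had lower values without passing the test, with log2-fold changes of −0.26 for *Ash2l* (64.1 and 59.1 CPM, adjusted p = 0.0596) and −0.23 for *Rbbp5* (31.4 and 32.2 CPM, adjusted p = 0.134). Of the enzymes, *Kmt2b* had 123 and 113 CPM (log2-fold change −0.20, adjusted p = 0.116), and *Kmt2a*, *Kmt2d*, *Setd1a* and *Setd1b* had log2-fold changes of −0.078 to 0.024. In *Kmt2a*, *Kmt2d*, *Setd1a* and *Setd1b* the siBrca1 and control libraries overlapped, and in the other 6 subunits they did not, against 77.0% of all tested genes without overlap.

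In siBard1 at day 3, *Wdr5*, *Dpy30* and *Men1* were called, all lower, where 14.5% of all tested genes were called (8.67% higher and 5.87% lower). No subunit passed a log2-fold change of 1, against 2.24% of all genes. In all 10 genes the siBard1 libraries lay below both control libraries, as did those of 33.7% of all tested genes, with a median of −0.20 against −0.021 for all genes. *Wdr5* stood at 96.6 and 91.9 CPM in siBard1 and had decreased by 28.1% from the control (log2-fold change −0.48, SE 0.10, adjusted p = 0.0090). *Dpy30* had 68.5 and 54.0 CPM and had decreased by 37.1% (log2-fold change −0.67, SE 0.19, adjusted p = 0.0300). *Men1* had 50.1 and 41.2 CPM and had decreased by 28.2% (log2-fold change −0.48, SE 0.12, adjusted p = 0.0200). Leaving out 1 of the 4 compared libraries ended the *Dpy30* call in all 4 cases, and the *Wdr5* and *Men1* calls in 3 of 4. *Kmt2b* (116 and 111 CPM, log2-fold change −0.26, adjusted p = 0.0970) and the remaining subunits, at −0.067 to −0.21, did not pass the test. The 3 knockdowns were compared with the same 2 nt control libraries, so their differences from the control are not independent of each other.

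**Figure D3:**
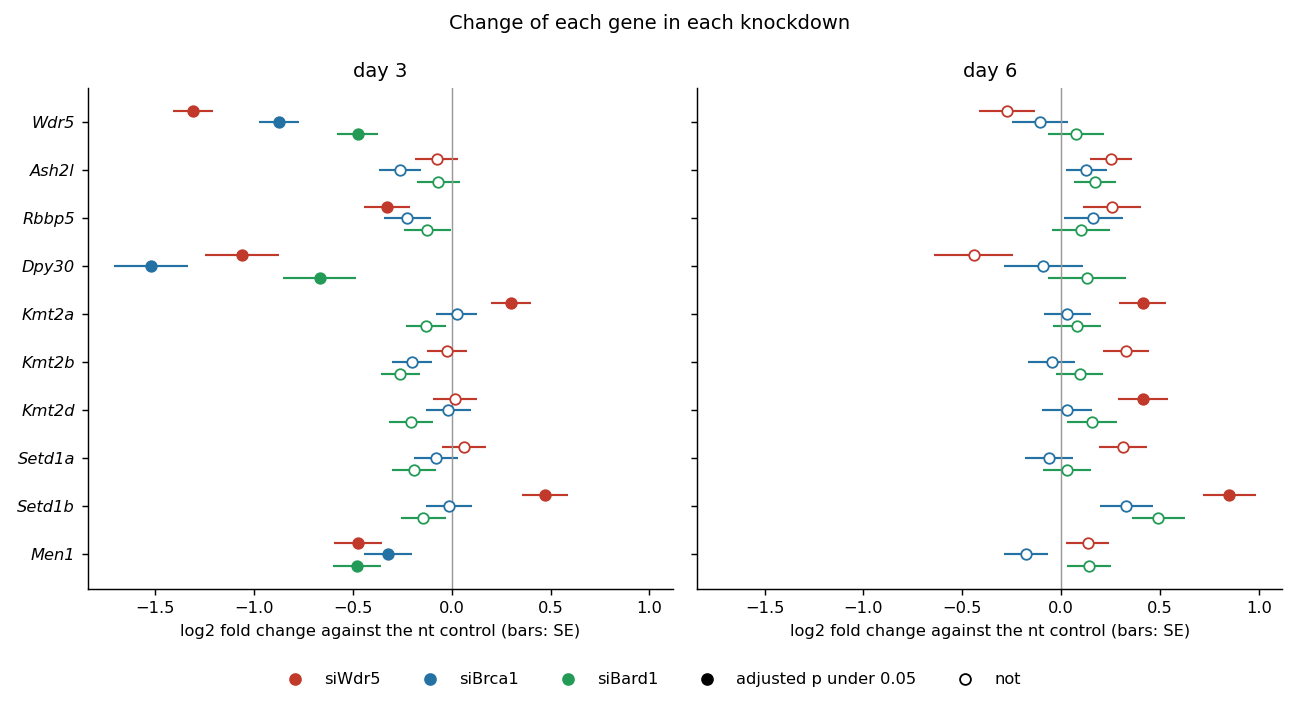
Log2-fold change against the nt control of the same day (points, with bars for the standard error) of the 10 subunits in siWdr5, siBrca1 and siBard1, day 3 on the left and day 6 on the right, with filled points for adjusted p under 0.05. At day 3 *Wdr5* and *Dpy30* are called lower in all 3 knockdowns, and *Setd1b* is called higher in siWdr5 at day 3 (0.47) and day 6 (0.85).

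To see where siWdr5 differed from the other knockdowns at day 3, the siRNA groups were tested against each other. Against siBrca1, *Wdr5* was lower in siWdr5 (log2 difference −0.44, adjusted p = 0.0118) and *Setd1b* was higher (0.49, adjusted p = 0.0121). These were 2 of the 10 subunits, while 15.7% of all tested genes were called (5.47% higher and 10.2% lower), and none of the 10 but 4.73% of all genes passed a log2 difference of 1. *Wdr5*, the target of siWdr5, is among these 2. The *Setd1b* libraries were 117 and 104 CPM in siWdr5 and 86.0 and 71.7 CPM in siBrca1, without overlap. *Dpy30* was 0.46 higher in siWdr5 than in siBrca1 on the log2 scale, which did not pass the test (adjusted p = 0.108).

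Against siBard1, *Wdr5* was lower in siWdr5 (log2 difference −0.83, adjusted p = 0.000382), and *Setd1b* (0.62, adjusted p = 0.00594) and *Kmt2a* (0.43, adjusted p = 0.0195) were higher. These 3 of 10, again with the target *Wdr5* among them, compare with 8.63% of all tested genes (4.85% higher and 3.78% lower), and a log2 difference of 1 was passed by none of the 10 and by 2.05% of all genes. *Dpy30* differed by −0.39 (adjusted p = 0.202). *Men1*, at 43.9 and 47.3 CPM in siWdr5 and 50.1 and 41.2 CPM in siBard1, overlapped. Without siWdr5 replicate 1, *Wdr5* and *Setd1b* were not called against siBrca1, and of the calls against siBard1 only that of *Wdr5* remained.

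By day 6 the pattern was different. In siWdr5, *Setd1b*, *Kmt2a* and *Kmt2d*, all catalytic subunits, were higher than in the nt control, and *Wdr5* and *Dpy30* did not pass the test. These 3 called subunits, all higher, compare with 21.8% of all tested genes (16.1% higher and 5.70% lower). No subunit passed a log2-fold change of 1, against 4.83% of all genes. The median of the 10 was 0.29, against 0.076 for all genes and 0.22 for the 5352 genes within the subunits' range of mean expression. *Setd1b* stood at 42.0 and 52.2 CPM in the nt control and at 79.7 and 89.6 CPM in siWdr5. With no overlap, it rose by 80.4% (log2-fold change 0.85, SE 0.13, adjusted p = 0.00445). *Kmt2a* rose from 131 and 149.6 CPM to 178 and 195 CPM (log2-fold change 0.41, SE 0.12, adjusted p = 0.0345). *Kmt2d* rose from 255 and 288 CPM to 359 and 363 CPM (log2-fold change 0.41, SE 0.13, adjusted p = 0.0421). Only *Setd1b* stayed called with libraries centred on their median gene (0.78, adjusted p = 0.00692), under quantile normalization (0.68, adjusted p = 0.0137) and without a trend (adjusted p = 0.0282), and the share of higher calls among all called genes went from 73.9% to 63.0% when centred and to 55.3% under quantile normalization. Without siWdr5 replicate 2 none of the 3 was called, at log2-fold changes of 0.77 for *Setd1b* (adjusted p = 0.0692), 0.34 for *Kmt2a* (adjusted p = 0.208) and 0.40 for *Kmt2d* (adjusted p = 0.182).

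In the core at day 6, *Wdr5* stood at 91.8 and 98.1 CPM in the nt control and at 85.5 and 72.4 CPM in siWdr5. Both siWdr5 libraries were below the controls, but the difference did not pass the test (log2-fold change −0.27, SE 0.14, adjusted p = 0.189). *Dpy30* had 124 and 109 CPM in the control and 97.9 and 74.7 CPM in siWdr5, again lower in both libraries without a call (log2-fold change −0.44, SE 0.20, adjusted p = 0.133). The remaining values were positive, at 0.25 for *Ash2l* (adjusted p = 0.107), 0.26 for *Rbbp5* (adjusted p = 0.224), 0.33 for *Kmt2b* (adjusted p = 0.0693), 0.31 for *Setd1a* (adjusted p = 0.0916) and 0.13 for *Men1* (adjusted p = 0.401). In all 10 subunits the siWdr5 and control libraries of day 6 did not overlap, as was the case for 68.6% of all tested genes.

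In siBrca1 and siBard1 at day 6, where the target transcripts were not measurably lower, no subunit was called. In siBrca1, limma called 0% of all tested genes, limma-voom on the recovered reads called none either, and at an unadjusted p under 0.05 there were 1123 of 14028 genes and 1 of the 10 subunits, *Setd1b*. In siBard1, limma called 11 genes (0.0784%, all higher, 0.0713% past a log2-fold change of 1) and no subunit, and limma-voom called 7 genes and no subunit. At an unadjusted p under 0.05 there were 1908 genes and again 1 subunit, *Setd1b*. *Setd1b* had 61.8 and 56.1 CPM in siBrca1 and 65.4 and 66.5 CPM in siBard1, all above the controls of 42.0 and 52.2 CPM, and its log2-fold changes were 0.33 and 0.49 (adjusted p = 0.187 in siBard1). *Wdr5* had 92.8 and 83.5 CPM in siBrca1 and 89.2 and 112 CPM in siBard1. *Dpy30* had 129.7 and 91.8 CPM in siBrca1 and 147 and 110.0 CPM in siBard1. Both genes overlapped the controls in both groups.

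Whether a knockdown's effect differed between the days was tested directly, as the day 6 change minus the day 3 change. At day 6 the siRNA target itself was not measurably lower in siBrca1 or siBard1, and *Wdr5* was not called in siWdr5. For siWdr5 the difference was called for *Wdr5* (1.04 on the log2 scale, SE 0.17, adjusted p = 0.0125) and *Men1* (0.61, SE 0.16, adjusted p = 0.0443). These 2 of 10 compare with 4.43% of all tested genes (3.40% higher and 1.03% lower), and past a log2 value of 1 were 1 of the 10 and 1.39% of all genes. Both counts include *Wdr5*, the siRNA target. *Wdr5* had changed by −1.31 at day 3 and by −0.27 at day 6, and *Men1* by −0.47 and 0.13. With 1 library left out at a time, the difference was 0.92 to 1.16 for *Wdr5* and 0.56 to 0.66 for *Men1*. The *Men1* call was lost in every one of these refits and the *Wdr5* call in most of them. *Dpy30* (0.62, SE 0.31, adjusted p = 0.240) and *Rbbp5* (0.59, adjusted p = 0.0707) were not called. All 10 values were positive, with a median of 0.39 against 0.12 for all genes and 0.17 for the 5352 genes in the same range of mean expression. Centring each library on its median gene lowered the all-gene median by 0.135, left *Wdr5* called (0.90, adjusted p = 0.0210) and *Men1* not (0.47, adjusted p = 0.0850), and made *Kmt2a* negative (−0.023).

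In siBrca1 the same test called *Dpy30* (1.43, SE 0.31, adjusted p = 0.00666) and *Wdr5* (0.77, SE 0.17, adjusted p = 0.00814). These 2 of 10 compare with 20.5% of all tested genes (10.3% higher and 10.3% lower), and past a log2 value of 1 were 1 of the 10 and 8.60% of all genes. Both calls held when any 1 of the 8 libraries involved was left out. *Dpy30* had changed by −1.52 at day 3, and at day 6 its siBrca1 libraries lay on both sides of the controls. In siBard1 limma called 7 genes (0.0499%; 0.0214% higher, 0.0285% lower and 0.0428% past a log2 value of 1) and no subunit, limma-voom likewise called 7 genes and no subunit, and 6 of the 10 subunits and 2694 genes had an unadjusted p under 0.05. Its values were 0.55 for *Wdr5* (adjusted p = 0.108), 0.80 for *Dpy30* (adjusted p = 0.175), 0.62 for *Men1* (adjusted p = 0.0707) and 0.64 for *Setd1b* (adjusted p = 0.0830). As in siWdr5, all 10 values were positive in siBrca1 and in siBard1. Their medians were 0.25 and 0.36, against 0.010 and 0.071 for all genes. The same nt control libraries enter the differences of all 3 knockdowns, so this shared sign is not independent between them.

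The nt control itself changed from day 3 to day 6. All subunits but *Dpy30* were lower at day 6, so 9 of 10 were called lower, where 46.2% of all tested genes were called (19.0% higher and 27.1% lower). None passed a log2-fold change of 1, against 11.8% of all genes. The median of the 10 was −0.48, against −0.073 for all genes, and the 5352 genes in the same range of mean expression had a median of −0.27 with 44.2% called lower. In all 10 genes the day 3 and day 6 libraries did not overlap, and the same held for 78.2% of all tested genes. *Setd1b* changed most, from 78.8 and 79.9 CPM to 42.0 and 52.2 CPM, and decreased by 40.9% (log2-fold change −0.76, SE 0.13, adjusted p = 0.000186).

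The large enzymes moved by similar amounts, with log2-fold changes of −0.52 for *Kmt2a* (from 203 and 199.7 CPM to 131 and 149.6 CPM, adjusted p = 0.00089), −0.49 for *Kmt2b* (from 129.9 and 141 CPM to 90.3 and 103 CPM, adjusted p = 0.00119) and −0.52 for *Kmt2d* (from 396 and 380 CPM to 255 and 288 CPM, adjusted p = 0.00195). *Setd1a* fell least among the called genes, by 0.33 on the log2 scale (from 37.1 and 39.5 CPM to 29.6 and 31.3 CPM, adjusted p = 0.0164). Core subunits *Rbbp5* (−0.53, adjusted p = 0.00335), *Wdr5* (−0.47, adjusted p = 0.00539) and *Ash2l* (−0.40, adjusted p = 0.00345) and the cofactor gene *Men1* (−0.40, adjusted p = 0.00836) were lower too. *Dpy30* was the exception, with 99.8 and 93.6 CPM at day 3 and 124 and 109 CPM at day 6 (log2-fold change 0.27, SE 0.22, adjusted p = 0.339). Under quantile normalization 4 of the 9 calls remained, those of *Rbbp5* (adjusted p = 0.00727), *Kmt2a* (adjusted p = 0.0224), *Kmt2b* (adjusted p = 0.0456) and *Setd1b* (adjusted p = 0.00233).

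**Figure D4:**
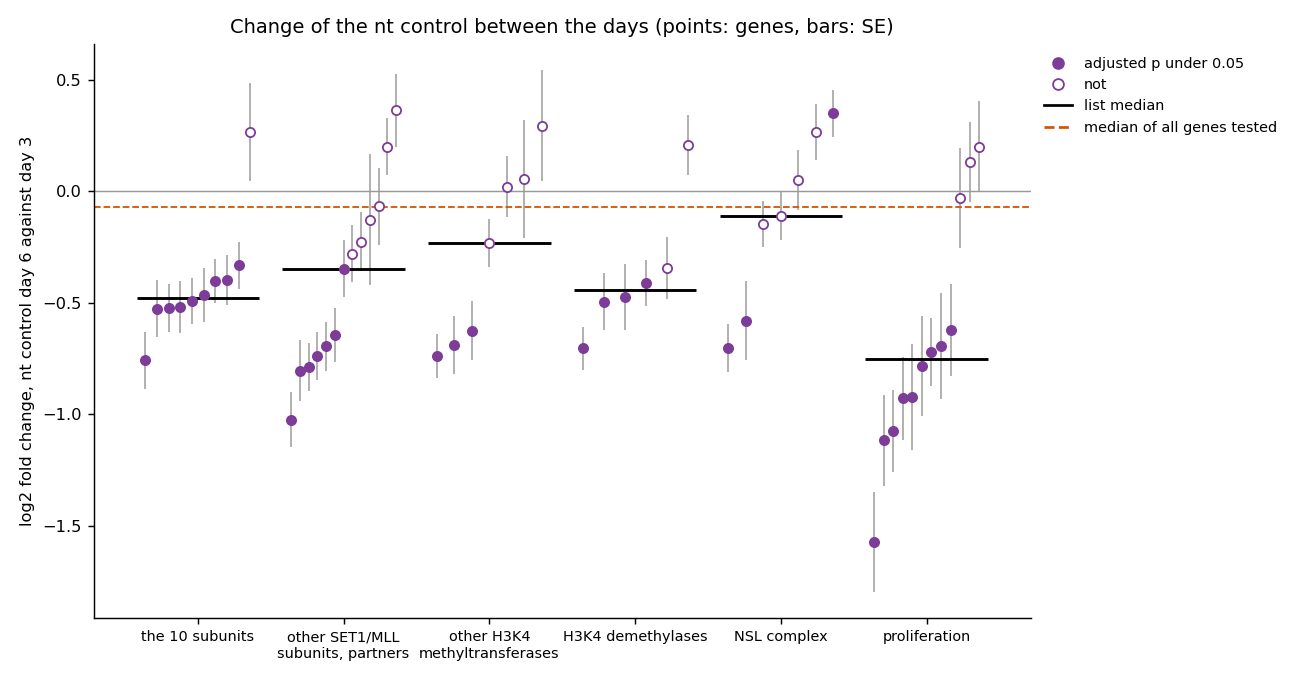
Log2-fold change at day 6 against day 3 within the nt control for each of the 10 subunits and for the genes of 5 related lists (points, with bars for the standard error), with black lines for list medians and a dashed line for the median of all tested genes. The subunits, other than *Dpy30* at 0.27, lie between −0.76 and −0.33, with a median of −0.48 against −0.073 for all genes.

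Other genes of the pathway were read from lists of further complex subunits and partners, H3K4 methyltransferases outside the complexes, H3K4 demethylases and the NSL complex. Of the further SET1/MLL subunits and partners, 13 of 14 were tested. In siWdr5 at day 3, 3 were lower and none higher (median −0.18): *Wdr5b*, a retrogene paralogue of *Wdr5* with 3.83 to 3.96 CPM in the control and 1.44 to 2.66 CPM in siWdr5 (log2-fold change −0.99, adjusted p = 0.0229), *Psip1*, for the chromatin tether of menin and KMT2A (−0.72, adjusted p = 0.000655), and *Paxip1*, for the PTIP subunit of the KMT2C and KMT2D complexes (−0.32, adjusted p = 0.0431). Reads of *Wdr5b* and *Wdr5* could be exchanged where the paralogues are alike, so this value is uncertain. In siBrca1, 1 was higher and 5 lower (median −0.17), led by *Psip1* (−0.88), *Hcfc2* (0.65), *Paxip1* (−0.65) and *Hcfc1* (−0.56). In siBard1, 1 was higher and 2 lower (median −0.13), with *Hcfc2* at 0.43, *Paxip1* at −0.43 and *Psip1* at −0.39. In siWdr5 at day 6, 4 were higher and none lower (median 0.25): the coactivator gene *Ncoa6* (0.65), the enzyme gene *Kmt2c* (0.56), the host cell factor gene *Hcfc1* (0.55) and *Bod1l* (0.40). In the nt control, 7 of the 13 were lower at day 6 than at day 3 and none higher (median −0.35), led by *Hcfc1* (−1.02), *Kmt2c* (−0.80), *Paxip1* (−0.79) and *Bod1l* (−0.74). Called were 23.1% of the 13 in siWdr5, 46.2% in siBrca1 and 23.1% in siBard1 at day 3. For siWdr5 at day 6 and the nt control over time the shares were 30.8% and 53.8%. Those of all tested genes were, in the same order, 35.0%, 47.2%, 14.5%, 21.8% and 46.2%.

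The enzymes outside the complexes, with 7 of 8 tested, held few calls. In siWdr5 at day 3 the only one was *Ash1l*, for an H3K36 methyltransferase formerly assigned to H3K4 (0.31, adjusted p = 0.0282), with a list median of 0.18. *Smyd2* was lower in siBrca1 (−0.52) and siBard1 (−0.46), *Ash1l* (0.53) and *Setd7* (0.48) were higher in siWdr5 at day 6, and *Setd7* (−0.74), *Smyd2* (−0.69) and *Ash1l* (−0.63) fell in the nt control over time. All 6 demethylases were tested. *Kdm5b*, which removes H3K4 methylation, was higher in siWdr5 (0.69, adjusted p = 0.00103), siBrca1 (0.88) and siBard1 (0.43) at day 3, while *Kdm1b* was lower in siWdr5 (−0.40, adjusted p = 0.0321). At day 6 *Kdm5c* was higher in siWdr5 (0.56), and 4 demethylases, *Kdm5c* (−0.70), *Kdm2b* (−0.50), *Kdm1b* (−0.47) and *Kdm1a* (−0.41), fell in the nt control over time. The 7 NSL genes, all tested, had a median of −0.072 in siWdr5 at day 3. *Mcrs1* (−0.73) and *Kansl3* (−0.29) were lower in siBrca1, *Kansl3* (−0.37) was lower in siBard1, and *Ogt* (−0.41) was lower in siWdr5 at day 6. In the nt control over time *Kansl3* (−0.70) and *Mcrs1* (−0.58) fell and *Phf20* (0.35) rose. Shares called follow for siWdr5, siBrca1 and siBard1 at day 3, siWdr5 at day 6 and the nt control over time. Of the enzymes outside the complexes they were 14.3%, 14.3%, 14.3%, 28.6% and 42.9%. Of the demethylases they were 33.3%, 16.7%, 16.7%, 16.7% and 66.7%, and of the NSL genes 0%, 28.6%, 14.3%, 14.3% and 42.9%. Those of all tested genes were 35.0%, 47.2%, 14.5%, 21.8% and 46.2%.

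Proliferation and cell type markers were read in the same groups. Of 12 proliferation genes, 11 were lower in siWdr5, 12 in siBrca1 and 1 in siBard1 at day 3. Of all tested genes, 16.8%, 21.8% and 5.87% were called lower. The medians of the 12 were −0.76, −1.35 and −0.36. Their summed level was 2234 to 2241 CPM in the nt control, 1313 to 1426 CPM in siWdr5 and 1733 to 1768 CPM in siBard1. In siBrca1 it was 1261 CPM in replicate 1 and 662 CPM in replicate 2, the library in which *Dpy30* was lowest. At day 6 it was 1317 to 1641 CPM over all groups. From day 3 to day 6 in the nt control, 9 of the 12 fell (median −0.75), beside the falls of *Wdr5* and of the catalytic subunits, and 27.1% of all tested genes were called lower. The summed fibroblast markers at day 3 were 7744 to 8733 CPM in the nt control, 13679 to 14213 CPM in siWdr5, 11544 to 12695 CPM in siBrca1 and 9636 to 11220 CPM in siBard1. The single markers did not all move alike. In siWdr5 8 of 9 were higher and none lower (median 0.81), in siBrca1 5 were higher and *Dcn* was lower (−0.52, list median 0.50), and in siBard1 only *Dcn* was called, lower (−0.46, list median 0.22). Of all tested genes, 18.3%, 25.4% and 8.67% were called higher. *Des*, a muscle and stromal cytoskeletal gene, was higher at day 3 by 1.98 in siWdr5, 2.26 in siBrca1 and 1.21 in siBard1 (log2 scale). It was also higher in siWdr5 at day 6 (1.96). *Myh3*, the other tested muscle marker, was lower in siBrca1 at day 3 (−1.50) and in siWdr5 at day 6 (−2.85). It was not called in siWdr5 (0.14) or siBard1 (0.26) at day 3. *Csf1r*, a macrophage receptor gene at 1.32 to 5.45 CPM, was higher at day 3 in siWdr5 (1.81) and siBrca1 (1.06), and in siWdr5 at day 6 (1.33). *Cd68*, the other tested macrophage marker, was higher in siBrca1 (1.07) and not called in siWdr5 (0.21) at day 3. The endothelial marker *Tek* was higher in siWdr5 at day 6 (1.02), and the neural marker *Tubb3* was lower in siBrca1 at day 3 (−1.23). The other tested markers of these lists, *Kdr* and *Sox10*, were not called in any knockdown against the nt control. At day 6 the fibroblast markers summed to 5088 to 5313 CPM in the nt control, 9224 to 12683 CPM in siWdr5, in which *Setd1b* and *Kmt2a* were higher, 6253 to 6611 CPM in siBrca1 and 8046 to 8074 CPM in siBard1, in which no subunit was called. In the nt control over time the sum fell while 4 of the 9 genes were higher, *Lum* (4.19), *Dcn* (3.25), *Pdgfra* (1.15) and *Thy1* (1.08), and 3 were lower (median 0.47). Of all tested genes, 19.0% were called higher and 27.1% lower. The 5 epithelial markers of the nt control stood at 43.3 to 65.2 CPM at day 3 and at 548 to 738 CPM at day 6, when they were 354 to 475 CPM in siWdr5, 552 to 585 CPM in siBrca1 and 374 to 486 CPM in siBard1. At day 3 *Cdh1* (−1.46 in each) and *Epcam* (−1.93 and −1.46) were lower in siWdr5 and siBrca1. *Krt8* was lower in siWdr5 (−1.23), and *Krt18* was higher in siBrca1 (1.04). At day 6 *Krt8* (−0.86), *Epcam* (−0.85) and *Cldn4* (−0.80) were lower in siWdr5. No epithelial marker was called in siBard1 on either day or in siBrca1 at day 6. The 7 pluripotency markers at day 6 were 129 to 146 CPM in the nt control, 42.4 to 109 CPM in siWdr5, 122 to 392.4 CPM in siBrca1 and 136 to 194 CPM in siBard1. None of the 5 tested was called in a knockdown at day 6. Their log2-fold changes ran from −1.42 (*Nanog*) to −0.24 (*Lin28a*) in siWdr5. They ran from −0.21 (*Esrrb*) to 1.27 (*Dppa5a*) in siBrca1 and from −0.65 (*Esrrb*) to 0.77 (*Dppa5a*) in siBard1. At day 3 *Sall4* was lower in siWdr5 (−2.44), siBrca1 (−1.35) and siBard1 (−1.21), and no other tested pluripotency marker was called. The part that cell type, cell cycle or progress of reprogramming has in the values of the subunits was not tested.

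Across the whole design, the subunits differed in how far they moved. The span from the lowest to the highest library on the log2 scale was 2.49 for *Dpy30*, 1.47 for *Setd1b*, 1.38 for *Wdr5* and 1.02 for *Kmt2a*. It was 0.77 for *Kmt2d*, 0.74 for *Rbbp5*, 0.65 for *Kmt2b*, 0.62 for *Men1*, 0.51 for *Setd1a* and 0.45 for *Ash2l*. Likeness of pattern was measured as the root-mean-square difference between mean-centred log2 profiles over the 8 group means, which share libraries and controls. The closest subunit pair was *Kmt2b* and *Setd1a* (0.049), followed by *Kmt2d* with *Kmt2b* (0.058), *Ash2l* with *Rbbp5* (0.090), *Kmt2a* with *Kmt2d* (0.10), *Setd1b* with *Kmt2a* (0.14) and *Men1* with *Rbbp5* (0.16). The nearest subunit was much farther off for *Wdr5* (*Men1*, 0.30) and *Dpy30* (*Wdr5*, 0.49). The profiles were not scaled, so this measure grows with the size of the changes as well as with their shape. Over the group means *Dpy30* spans 1.92 and *Wdr5* 1.31, against 0.54 for *Kmt2b* and 0.46 for *Setd1a*. Among all tested genes outside the complexes, those nearest to *Wdr5* over the 8 groups, in which it spans 1.31, were *Trub1* (0.10), *Ctsc* (0.12), *Shtn1*, *Mapk11* and *Rnf220*. Over the 6 groups without siWdr5, in which it spans 0.87, they were *Cinp* (0.030), *Wdr4* (0.042), *Rbm10*, *Mrpl19* and *Nfyc*.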

How the data were processed

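Bulk RNA libraries were made from ribosomal RNA-depleted RNA (Kapa RNA HyperPrep with Ribo Erase) and sequenced paired-end. According to the submitters' processing notes, reads were aligned with STAR 2.5.2b to mm10 (GRCm38) and log2 CPM were computed with edgeR 3.20.9. The deposited values are log2 CPM as the authors made them, with a small prior count added, and the authors used DESeq2 for their own calls. The read counter, annotation and strand setting are not given in the sources used here. Whole reads could be recovered for 100% of values checked (tolerance 0.05), giving 11169738 to 26832534 reads per library, and 3 reads correspond to 0.115 to 0.260 CPM. CPM were obtained by raising 2 to each deposited value.

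The 14028 of 18990 genes with mean log2 CPM of at least 0 were tested with limma 3.58.1 in R 4.3.3 (1 mean per group, moderated with a trend). Each day's 8 libraries were fitted together for comparisons within a day, and all 16 for those across days. Two-sided p-values were adjusted over these 14028 genes (Benjamini-Hochberg), and genes under 0.05 were called. Scripts were tested on simulated data. According to the study, replicates are independent experiments. Replicate numbers are shared between groups, and deviations of same-numbered libraries correlated at −0.093 to 0.072 at day 3 and −0.070 to 0.26 at day 6, so the numbers were not taken as pairs. Alternatives were other filters, scalings, pseudocounts, samples in the model, no trend, a replicate block, limma-voom on the recovered reads, a threshold on the log2-fold change, and leaving out each library.

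The subunits and gene lists were chosen with earlier results of these data known. All 10 subunits are described. Of each other list at most 4 called genes per comparison are named, by size of change. Coordinates, exon lengths and 3′ UTRs come from GENCODE vM21 on GRCm38, and siRNA sequences from the study's siRNA library.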

Additional observations from a re-analysis of the deposited data

Results flagged for a closer look

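The effect of a knockdown differed between day 3 and day 6 in 4 cases by the test of the difference itself (limma, day 6 change minus day 3 change, log2 scale). For siWdr5 the difference was 1.04 for its target *Wdr5* (adjusted p = 0.0125) and 0.61 for *Men1* (adjusted p = 0.0443). For siBrca1 it was 0.77 for *Wdr5* (adjusted p = 0.00814) and 1.43 for *Dpy30* (adjusted p = 0.00666). At day 6 *Brca1* was not measurably lower in siBrca1 (log2-fold change 0.013), and *Wdr5* was not called in siWdr5. The nt control libraries enter both knockdowns' values. Without siWdr5 day 6 replicate 2, the calls over all genes for siWdr5 fell from 622 to 28. The *Wdr5* difference in siWdr5 was called in 3 of 8 refits that each left out 1 library and the *Men1* difference in none of the 8, whereas both siBrca1 differences were called in all 8.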

How the results depend on the processing

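With 2 libraries per group, 33 of 120 pairs of a subunit and a comparison were called, and none of these 33 changed sign under any alternative. The 53 sign changes were all among uncalled pairs with an absolute log2-fold change of at most 0.13. For single subunits, settings other than leaving out a library kept direction and call in 1086 values, lost the call in 37, gained it in 16 and changed sign in 21, and leaving out a library did so in 502, 63, 3 and 32. A level near the limit of 3 reads did not occur, and the number of libraries limits the precision. Where no value shows it, the cause of a change was not tested.

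The number of subunits called changed by more than 1.5 times as follows. With a log2-fold change above 1 required, a stricter rule by construction, it was 2 for siWdr5, 1 for siBrca1 and 0 for siBard1 at day 3, 0 for siWdr5 at day 6, 0 for the nt control over time, 1 each for the siWdr5 and siBrca1 differences between days, and 0 for siWdr5 against siBrca1 and against siBard1. Under quantile normalization it was 5 for siBrca1 at day 3, 1 for siWdr5 at day 6, 4 for the nt control over time and 1 for the siWdr5 difference between days. Without a filter it was 1 for siBard1 at day 3 and 1 for the siWdr5 difference between days. Without a trend it was 0 for siBard1 at day 3, 1 for siWdr5 at day 6, 0 for the siWdr5 difference between days, 0 against siBrca1 and 1 against siBard1. With libraries centred on their median gene it was 1 for siWdr5 at day 6 and 1 for its difference between days. A model of all 16 libraries gave 5 for siWdr5 at day 6, models of only the 8 libraries involved gave 4 and 3 for the siWdr5 and siBard1 differences between days, and a model of only 4 libraries gave 1 against siBrca1.

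Leaving out 1 library at a time gave 2 to 5 called subunits for siWdr5, 2 to 4 for siBrca1 and 0 to 2 for siBard1 at day 3, and 0 to 1 for siWdr5 at day 6. It gave 6 to 9 for the nt control over time, 0 to 1 and 2 to 3 for the siWdr5 and siBrca1 differences between days, 0 to 3 against siBrca1 and 1 to 2 against siBard1. The siWdr5 count at day 3 was 2 without its replicate 1 or nt replicate 1 and 3 without nt replicate 2. For siBard1 at day 3 it was 0 without its replicate 2 or either nt replicate. For siWdr5 at day 6 it was 0 without its replicate 2 and 1 without any of the other 3. Against siBrca1 it was 0 without siWdr5 replicate 1 and 1 without siWdr5 replicate 2 or siBrca1 replicate 2, and against siBard1 it was 1 without siWdr5 replicate 1 or siBard1 replicate 2.

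Signs that changed when libraries were centred were *Kmt2b* in siWdr5 (0.040), *Kmt2d* (0.010) and *Setd1b* (0.013) in siBrca1 and *Ash2l* in siWdr5 against siBard1 (0.035) at day 3, *Setd1a* in siBard1 at day 6 (−0.044), and for the differences between days *Kmt2a* in siWdr5 (−0.023) and *Kmt2a* (−0.047), *Kmt2d* (−0.0061) and *Setd1a* (−0.036) in siBrca1. Under quantile normalization they were *Kmt2d* in siWdr5 (−0.13), *Kmt2a* in siBrca1 (−0.14) and *Men1* in siWdr5 against siBard1 (−0.029) at day 3. At day 6 they were *Men1* in siWdr5 (−0.043), *Kmt2a* and *Kmt2d* in siBrca1 (−0.067 each), and *Wdr5* (−0.061), *Dpy30* (−0.0011), *Kmt2a* (−0.068), *Kmt2b* (−0.035) and *Setd1a* (−0.062) in siBard1, and for the siBrca1 difference between days *Setd1a* (−0.021).

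Signs that changed with a library left out had these ranges. At day 3 they were −0.17 to 0.015 for *Ash2l*, −0.087 to 0.035 for *Kmt2b* and −0.13 to 0.16 for *Kmt2d* in siWdr5, and −0.018 to 0.066 for *Kmt2a*, −0.046 to 0.012 for *Kmt2d* and −0.14 to 0.12 for *Setd1b* in siBrca1. At day 6 they were −0.34 to 0.16 for *Dpy30*, −0.063 to 0.13 for *Kmt2a*, −0.14 to 0.046 for *Kmt2b* and −0.057 to 0.12 for *Kmt2d* in siBrca1. In siBard1 at day 6 they were −0.090 to 0.24 for *Wdr5*, −0.017 to 0.22 for *Rbbp5*, −0.079 to 0.34 for *Dpy30*, −0.014 to 0.18 for *Kmt2a* and −0.012 to 0.071 for *Setd1a*. For the siBrca1 difference between days they were −0.087 to 0.10 for *Kmt2a*, −0.039 to 0.14 for *Kmt2d* and −0.032 to 0.069 for *Setd1a*. They were −0.11 to 0.18 for *Kmt2d* in siWdr5 against siBrca1, and −0.10 to 0.083 for *Ash2l* and −0.14 to 0.14 for *Men1* against siBard1.

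The replicate block left 5 called subunits for siWdr5 at day 3 (*Rbbp5* then had an adjusted p of 0.0539), 3 each for siBrca1 and siBard1 at day 3, 9 for the nt control over time, and 4 for siWdr5 at day 6, where *Dpy30* was called (adjusted p = 0.0213). Against siBrca1 it gave 3, with *Dpy30* called (adjusted p = 0.0417), and all other counts were as without it. The shared numbers are not known to pair the samples.

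Scaling moved the share of higher calls among all called genes by over 10 percentage points in 5 comparisons. It went from 76.7% to 33.5% (centred) or 45.8% (quantile) for the siWdr5 difference between days, from 73.9% to 63.0% or 55.3% for siWdr5 at day 6, and from 42.9% of 7 calls to 22.9% or 29.6% for the siBard1 difference between days. Centring moved it from 35.0% to 45.7% for siWdr5 against siBrca1 and from 56.2% to 69.9% against siBard1.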
